A study of Mus musculus with 11 samples.

Results

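The genes described here make up the regulated secretory granule of neuroendocrine cells: the granins Chga, Chgb, Scg2 and Scg3, the chaperone gene Scg5, and Pcsk1, Pcsk2, Cpe, Pam and Vgf. They were chosen by name, as the genes whose symbol is the only symbol given to a probe set. Of the 10 listed genes 9 were measured, out of 15803 genes in all, and Vgf, which encodes a granin-like precursor of secreted peptides, was not analysed here.

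Granins are acidic proteins that aggregate with calcium in the trans-Golgi network and help to pack peptide hormones and neuropeptides into dense core granules. Inside the granule the prohormone convertases cut precursors at basic residues, carboxypeptidase E trims the exposed basic residues, and the amidating enzyme encoded by Pam finishes the C terminus of many peptides. Neuroblastoma cells, spinal motor neurons and endocrine cells all use this pathway beside the small synaptic vesicles that carry classical transmitters.

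The cells were NSC34, a mouse hybrid line made from neuroblastoma and embryonic spinal cord cells and used as a model of motor neurons. Cells carrying a hairpin against Tardbp, the gene for the RNA-binding protein TDP-43 (shTardbp 1 to 4), were set against 2 control lines, with a hairpin against GFP (shGFP 1, 2, 3 and 5) or against Renilla luciferase (shLuciferase 1, 2 and 4). In every group the hairpin was expressed from the pSUPERIOR vector after lipofection, and stable clones were isolated in puromycin, so all groups share the vector and the selection. Whether arrays within a group stem from different clones or different cultures is not stated in the labels, and the p-values therefore measure only the spread between these arrays, which may be technical.

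Each array gave log2 expression values for 194293 probe sets, and the value of a gene is the mean of its probe sets on that log2 scale. Probes differ in brightness, so these values rank the groups for 1 gene and do not rank genes against each other. A change is the difference of group means on the log2 scale from limma, with its standard error (SE). A gene passed the test at an adjusted p under 0.05, by the Benjamini-Hochberg method over all genes. A fold is the ratio of the corresponding signals. The files hold no detection calls, and the 25th percentile of the probe set values of an array, which was between 4.46 and 4.57, served as a mark for low signals.

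The targeted gene was lower in the depleted line. Tardbp was between 8.80 and 9.00 on the shTardbp arrays, against 9.08 to 9.42 on the 7 control arrays, and its signal was 75.8% of that of the controls (change -0.40, SE 0.0722, limma adjusted p = 0.000713; exact two-sided permutation test over 330 splits, p = 0.00303). The labels also give each array its own code of a letter and a number, whose meaning is not stated: the letter is P for the 4 shTardbp arrays and shLuciferase 4 and C for the other 6 arrays. With the letter as a block the Tardbp change was -0.29 with a limma adjusted p of 0.173. Of 12 neuron markers 12 lay above the 25th percentile on every array, and of 10 motor neuron markers 7 did, while Chat, Slc5a7 and Mnx1, which define cholinergic motor neurons, lay below it on every array. The vesicular acetylcholine transporter gene Slc18a3 was above it on every array. Of 10 pituitary, islet and adrenal markers 5 lay below it on every array (Prl, Tshb, Cga, Gcg and Slc6a2). Of these 10 markers 0 passed the test against both controls, where 30.5% of all genes did.

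Promoters of several granin genes carry a cyclic AMP response element, and windows upstream of the starts are shown. They were chosen for display after the values of Chgb and Scg2 were seen. RefSeq promoter windows (assembly GRCm38.p6) were found for 8 of the 10 listed genes. The last 120 bases before the start are given 5′ to 3′, with matches to TGACGTCA, TGACGTAA or the shorter TGACG in capitals.
Chga, chr12:102554821-102554940, plus strand: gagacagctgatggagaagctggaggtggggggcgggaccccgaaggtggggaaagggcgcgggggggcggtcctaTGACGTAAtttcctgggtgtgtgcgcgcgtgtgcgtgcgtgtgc
Chgb, chr2:132781522-132781641, plus strand: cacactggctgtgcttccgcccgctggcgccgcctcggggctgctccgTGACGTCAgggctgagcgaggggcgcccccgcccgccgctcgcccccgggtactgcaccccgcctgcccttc
Scg2, chr1:79440027-79440146, minus strand: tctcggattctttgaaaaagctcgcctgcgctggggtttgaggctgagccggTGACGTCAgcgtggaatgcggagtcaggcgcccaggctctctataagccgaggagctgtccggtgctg
Scg3, chr9:75684057-75684176, minus strand: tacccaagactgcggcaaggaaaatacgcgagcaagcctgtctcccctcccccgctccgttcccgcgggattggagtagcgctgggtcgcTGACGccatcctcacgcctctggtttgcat
Pcsk1, chr13:75089737-75089856, plus strand: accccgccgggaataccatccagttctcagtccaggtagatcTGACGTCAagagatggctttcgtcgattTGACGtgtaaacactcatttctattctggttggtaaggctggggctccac
Both strands of the 250 bases before the start were searched for TGACGTCA, TGACGTAA, TGACG and TATAAA, and TGACG also lies within both 8-base motifs. The start is that of the promoter window. For Chga, Chgb and Scg2 the window adjoins the annotated gene. For Pcsk1 and Scg3 it lies inside the gene, which begins at 75089420 for Pcsk1 and, on the minus strand, at 75685959 for Scg3. The full palindrome TGACGTCA began 72 bases before the start of Chgb, 68 before that of Scg2 and 78 before that of Pcsk1. In Chga the variant TGACGTAA began 44 bases before the start. Only TGACG was found in Scg3, 30 bases before the start, in Scg5, 175 bases before it, and in Pcsk2, 34 bases before it. None of these motifs was found in the 2 windows of Pam. The windows of Scg5, Pcsk2 and Pam are not shown, so the display favours genes with a match. Of 32851 promoter windows 1.55% held TGACGTCA, 0.447% held TGACGTAA, 17.8% held TGACG and 12.4% held TATAAA, which no member window held. A match describes these letters and not a bound site. Among the 267 measured genes with the full palindrome 15.36% rose and 19.85% fell in shTardbp cells, against 12.99% and 17.51% of all 10987 genes with a window, and between shGFP and shLuciferase 5.99% were higher and 5.24% lower, against 6.16% and 5.09%. Pcsk1, which holds the same palindrome as Chgb and Scg2, gave low signals in all groups. Whether the element has a part in the granule gene results was not tested.

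Set against both controls together, 6 of the 9 measured genes rose in shTardbp cells and 0 fell: Chga, Chgb, Scg2, Scg3, Scg5 and Pam. Of all genes 30.5% passed this test, 13.5% higher and 17.0% lower. Genes with higher signals passed more often. Of the 7901 genes above the median level, fitted on their own, 1703 were higher and 2313 lower. All of the 9 genes except Pcsk1 are among these 7901. The median change of the 9 genes was 0.34, against 0.0072 over all genes. The 6 genes did not follow 1 pattern across the control lines. Against shGFP alone 3 passed, all higher (Chga, Scg3 and Scg5), where 27.9% of all genes passed, 12.4% higher and 15.5% lower. Against shLuciferase alone 6 passed, all higher, where 26.1% of all genes passed, 11.8% higher and 14.3% lower. The 3 genes that were higher against each control compare with 7.69% of all genes that did so, and 17.1% of all genes passed against each control in the same direction. The controls themselves differed in 4 of the 9 genes, Chgb, Scg2 and Scg5 being higher and Pcsk2 lower in shGFP than in shLuciferase, where 11.1% of all genes passed, 6.26% higher and 4.82% lower. These comparisons share arrays and are not independent of each other. Bulk RNA does not separate a change in the share of cells that express a gene from a change in RNA per cell.

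**Figure D1:**
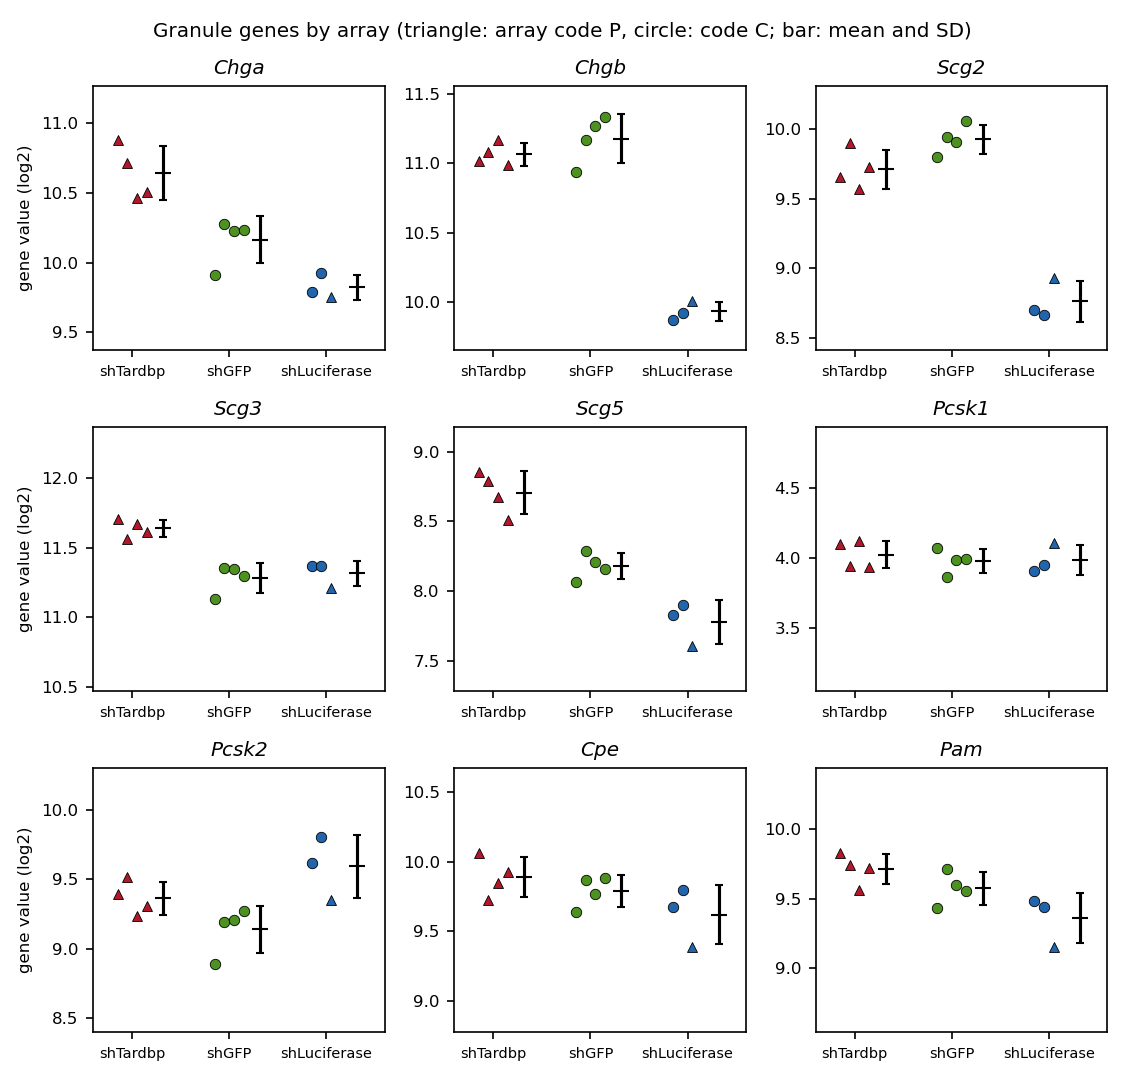
Log2 expression of the 9 measured granule genes on each of the 11 arrays, with shTardbp left of shGFP and shLuciferase. Each symbol is an array (triangles for code letter P, circles for C), and the bars give the group mean and SD. For Chga, Scg3 and Scg5 the 4 shTardbp arrays lie above all 7 control arrays, and for Chgb and Scg2 the 3 shLuciferase arrays lie below the other groups.

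Chga encodes chromogranin A, an abundant soluble granule protein and the precursor of several peptides. Its values were 10.88, 10.72, 10.46 and 10.51 on the shTardbp arrays, against 9.91, 10.28, 10.23 and 10.24 on the shGFP arrays and 9.79, 9.92 and 9.76 on the shLuciferase arrays. All 4 shTardbp arrays lay above all 7 control arrays, and shTardbp 1 and 2 were the highest. The change against both controls was 0.65 (SE 0.0921, limma adjusted p = 9.98e-05), a 1.57-fold higher signal. Against shGFP it was 0.48 (SE 0.104, limma adjusted p = 0.00296) and against shLuciferase 0.82 (SE 0.112, limma adjusted p = 0.000100). The shGFP mean was above the shLuciferase mean by 0.34, which did not pass (limma adjusted p = 0.0678), and shGFP 1 lay apart from the other shGFP arrays. Without shGFP 1 that difference was 0.43 and passed (limma adjusted p = 0.0204).

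Scg5 encodes 7B2, the chaperone that brings the PCSK2 precursor to its active form. It had values of 8.85, 8.79, 8.68 and 8.51 on the shTardbp arrays, against 8.07, 8.29, 8.20 and 8.16 on the shGFP arrays and 7.82, 7.90 and 7.60 on the shLuciferase arrays. The 3 groups did not overlap, with shTardbp highest and shLuciferase lowest. Among the 9 genes Scg5 had the largest change against both controls, 0.73 (SE 0.0802, limma adjusted p = 1.22e-05), a 1.66-fold higher signal, and it ranked 514 by size of change among all genes. It was 1.44-fold higher than in shGFP (limma adjusted p = 0.000540) and 1.91-fold higher than in shLuciferase (limma adjusted p = 1.24e-05). It was also 1.32-fold higher in shGFP than in shLuciferase (limma adjusted p = 0.0156), but without shLuciferase 4 this difference was 0.32 on the log2 scale and did not pass (limma adjusted p = 0.0666).

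Scg3 encodes secretogranin III, which binds chromogranin A and cholesterol-rich granule membrane. Its values were 11.70, 11.56, 11.67 and 11.61 on the shTardbp arrays, against 11.13, 11.36, 11.35 and 11.30 on the shGFP arrays and 11.37, 11.37 and 11.21 on the shLuciferase arrays. The shTardbp arrays lay above all controls, and the control groups overlapped. The change was 0.34 against both controls (SE 0.0632, limma adjusted p = 0.000917), a 1.27-fold higher signal. It was 0.36 against shGFP and 0.32 against shLuciferase, both past the threshold (limma adjusted p = 0.00170 and 0.00620). The controls differed by -0.033, with a 95% interval of -0.198 to 0.133. Chga, Scg3 and Scg5 were the 3 of 9 genes whose shTardbp arrays lay above all control arrays, which 8.45% of all genes did, and 0 lay below all control arrays, which 9.82% of all genes did.

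Chgb encodes chromogranin B, a second abundant granule core protein. Its values were 11.02, 11.08, 11.17 and 10.99 on the shTardbp arrays, against 10.93, 11.16, 11.27 and 11.33 on the shGFP arrays and 9.88, 9.93 and 10.01 on the shLuciferase arrays. The shTardbp and shGFP arrays overlapped, and the 3 shLuciferase arrays were all lower. Chgb passed against both controls together (change 0.51, SE 0.0757, limma adjusted p = 0.000158). Against shGFP, however, the change was -0.11 with a 95% interval of -0.295 to 0.0713 (limma adjusted p = 0.414), while shTardbp cells had 2.18-fold more signal than shLuciferase cells (limma adjusted p = 1.67e-06). shGFP cells had 2.36-fold more than shLuciferase cells (log2 difference 1.24, SE 0.0919, limma adjusted p = 1.83e-06).

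Scg2 encodes secretogranin II, the precursor of the peptide secretoneurin. It had values of 9.66, 9.90, 9.57 and 9.72 on the shTardbp arrays, against 9.80, 9.94, 9.91 and 10.06 on the shGFP arrays and 8.70, 8.66 and 8.93 on the shLuciferase arrays. As with Chgb, the shTardbp and shGFP arrays overlapped and all shLuciferase arrays were lower. The change against both controls was 0.37 (SE 0.0785, limma adjusted p = 0.00248). Against shGFP it was -0.21 (95% interval -0.404 to -0.0239, limma adjusted p = 0.0934), so its sign was opposite to that against shLuciferase, 0.95 (limma adjusted p = 8.93e-06). shGFP cells had 2.24-fold more signal than shLuciferase cells (limma adjusted p = 4.92e-06). When each gene was summarised by its middle probe set value, the median, in place of the mean, Scg2 was lower in shTardbp than in shGFP cells (change -0.44, limma adjusted p = 0.0210) and no longer passed against both controls (limma adjusted p = 0.0522). It was also lower than in shGFP cells with array weights (-0.27, limma adjusted p = 0.0158) and without shTardbp 2 (-0.28, limma adjusted p = 0.0338).

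**Figure D2:**
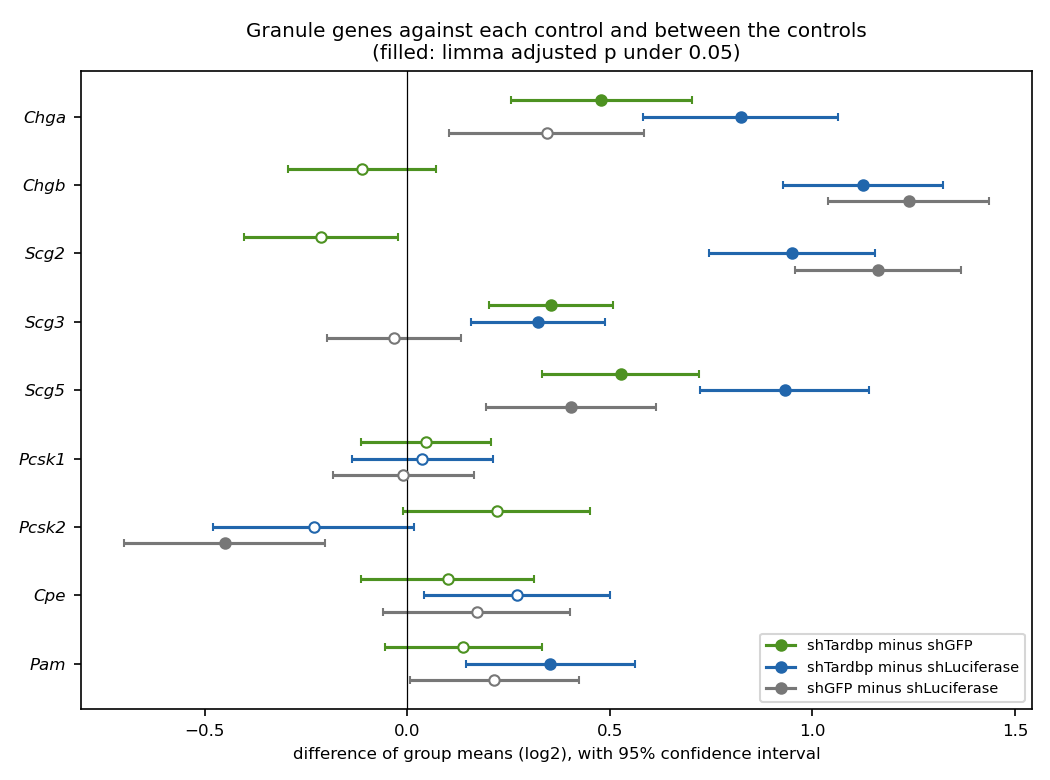
Log2 difference of group means with its 95% interval for each measured gene, for shTardbp minus shGFP, shTardbp minus shLuciferase and shGFP minus shLuciferase. Filled points passed the test at a limma adjusted p under 0.05 over all genes and open points did not. Chga, Scg3 and Scg5 passed against each control, and the widest gaps for Chgb and Scg2 are those to shLuciferase, including shGFP minus shLuciferase (1.24 and 1.16).

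Of the 4 enzyme genes of the granule 1, Pam, passed against both controls. Pam, whose product amidates peptides, had values of 9.83, 9.74, 9.56 and 9.72 on the shTardbp arrays, against 9.43, 9.71, 9.60 and 9.56 on the shGFP arrays and 9.48, 9.44 and 9.15 on the shLuciferase arrays. It overlapped with shGFP and lay above all shLuciferase arrays. Its change was 0.25 against both controls (SE 0.0798, limma adjusted p = 0.0307), 0.35 against shLuciferase (limma adjusted p = 0.0147) and 0.14 against shGFP (95% interval -0.0547 to 0.332, limma adjusted p = 0.319). The call against both controls rested on single arrays: the limma adjusted p was 0.104 without shTardbp 1, 0.0748 without shTardbp 2, 0.0675 without shTardbp 4 and 0.0544 without shLuciferase 4. It was 0.0640 with the median of the probe sets and 0.0765 with array weights, where the change was 0.16. The Pam call against shLuciferase was lost without shLuciferase 4 (0.25, limma adjusted p = 0.0696) and when probe sets were summarised by their median (limma adjusted p = 0.0545).

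Cpe encodes carboxypeptidase E. Its values were 10.06, 9.72, 9.84 and 9.92 on the shTardbp arrays, against 9.64, 9.87, 9.77 and 9.88 on the shGFP arrays and 9.68, 9.79 and 9.38 on the shLuciferase arrays. The 3 groups overlapped. The change against both controls, 0.18 (95% interval -0.00446 to 0.374), did not pass (limma adjusted p = 0.143), and neither did that against shLuciferase, 0.27 (limma adjusted p = 0.0821). The comparison with shLuciferase passed without shTardbp 2 (limma adjusted p = 0.0471) and without shLuciferase 2 (limma adjusted p = 0.0410).

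Neither convertase gene passed against both controls. Pcsk2, the neuroendocrine convertase that 7B2 assists, had values of 9.39, 9.51, 9.24 and 9.31 on the shTardbp arrays, against 8.89, 9.19, 9.21 and 9.27 on the shGFP arrays and 9.62, 9.81 and 9.35 on the shLuciferase arrays. The shTardbp mean lay between the means of the controls, so the change against both was -0.0051 (95% interval -0.210 to 0.199, limma adjusted p = 0.982). shGFP cells had 1.37-fold less signal than shLuciferase cells (log2 difference -0.45, SE 0.115, limma adjusted p = 0.0215), and that call was lost without shGFP 1 (limma adjusted p = 0.0519), shLuciferase 1 (0.0725) or shLuciferase 2 (0.111). Against shLuciferase the change was -0.23 (limma adjusted p = 0.179), and it passed without shLuciferase 4 (-0.35, limma adjusted p = 0.0405) and with array weights (-0.34, limma adjusted p = 0.00989). Pcsk1, the other main granule convertase, was between 3.86 and 4.12 on all 11 arrays, below the 25th percentile of each array, and its largest difference between group means was 0.047. For Pcsk1 these signals give no measure of a difference.

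The granule genes were also compared among arrays with the same code letter. Within the letter P, the mean of the 4 shTardbp arrays exceeded shLuciferase 4 by 0.89 for Chga, 1.11 for Scg5, 0.43 for Scg3, 1.05 for Chgb, 0.78 for Scg2, 0.56 for Pam and 0.50 for Cpe, with 4 of 4 shTardbp arrays above it for each of these 7 genes. For Pcsk2 the difference was 0.0076 and 2 of 4 lay above. With 1 array on the control side there is no test. Within the letter C, shGFP exceeded the other 2 shLuciferase arrays by 1.27 for Chgb and 1.25 for Scg2, by 0.32 for Scg5 and 0.31 for Chga, and was lower for Pcsk2 by a log2 difference of -0.57. With the letter as a block, limma kept the calls against both controls for Scg5 (0.95, adjusted p = 0.000923), Scg3 (0.47, adjusted p = 0.0136), Chga (0.73, adjusted p = 0.0159) and Pam (0.51, adjusted p = 0.0187), and Cpe passed as well (0.48, adjusted p = 0.0377). It did not keep those for Chgb (0.41, adjusted p = 0.0716) and Scg2 (0.16, adjusted p = 0.481), nor that of Chga against shGFP alone (0.58, adjusted p = 0.102). shLuciferase 4 is the only array that separates the letter from the shTardbp group in this fit.

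Single probe sets showed how far the gene means stand for the whole transcript. The 9 genes held 104 probe sets, of which 38 were higher and 0 lower in shTardbp cells than in both controls, where 16.0% of all 179496 probe sets passed. Of the 12 probe sets of Chga 11 passed and their changes ran from 0.419 to 1.27 over all 12. Chgb passed in 9 of 10 (0.312 to 0.859), Scg3 in 8 of 12 (0.130 to 0.515) and Scg5 in 6 of 8 (0.236 to 1.27). Pam passed in 3 of 22, although 21 of its changes were positive, and Cpe in 0 of 10, although all 10 were positive. Pcsk2 passed in 0 of 13, with 5 positive and 8 negative changes. Of the 13 probe sets of Pcsk1 9 lay below the 25th percentile on every array.

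Scg2 has 4 probe sets, and they differed in size of change. The brightest, with a mean level of 12.86, changed by 0.12 and the next, at 11.46, by 0.061, and neither passed (limma adjusted p = 0.465 and 0.750). The 2 dimmer ones, at 8.68 and 5.12, changed by 0.58 and 0.72, and the last passed (limma adjusted p = 0.0165). That last probe set averaged 5.53 in shTardbp and 5.39 in shGFP cells. In shLuciferase cells it averaged 4.23, below the mark for low signals, so its differences from that group are imprecise. The difference of shGFP over shLuciferase was 0.45, 0.93, 2.11 and 1.16 in the same 4 probe sets, of which the last 3 passed (2.66% of all probe sets did). For Chgb all 10 probe sets passed between the control lines, with 1.03 to 1.46 more in shGFP. In Pcsk2 all 13 were lower in shGFP, by log2 differences of -0.894 to -0.0232, and 1 passed.

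The change of each probe set was also set against the mean of the other probe sets of its gene, which tests whether part of a transcript moved apart from the rest. Of the 104 probe sets 0 passed in limma, where 1.36% of all 177027 probe sets tested did. At an unadjusted p under 0.05 there were 13, and the share of all probe sets at that mark was not counted. The lowest adjusted p was 0.0531, for the Scg2 probe set at 11.46. In simulated data with known shifts of single probe sets, this test found 30 of 50 shifts of 1 and 3 of 50 of 0.5. It found 34 of 49 shifts of -1 and 2 of 49 of -0.5, so 0 calls do not exclude shifts of such sizes. limma's diffSplice called 2 of the 104, where it called 4111 of all 177027 probe sets. They were 1 in Chga (0.68 above the rest of the gene, adjusted p = 0.0123) and 1 in Scg5 (0.62, adjusted p = 0.0303). Neither can be assigned to an exon, since positions of probe sets were not used here.

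**Figure D3:**
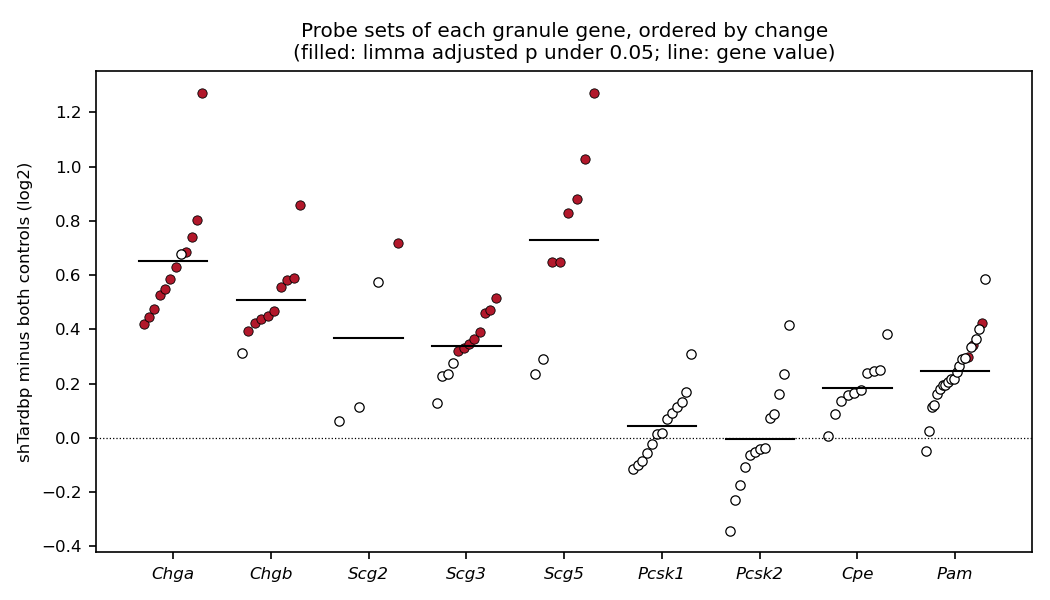
Change of each of the 104 probe sets of the 9 genes, in shTardbp minus the mean of both controls on the log2 scale. Filled points passed the test at a limma adjusted p under 0.05 over all probe sets, and the lines mark the gene's change. All changes of Chga, Chgb, Scg2, Scg3, Scg5 and Cpe are above 0, and those of Pcsk2 lie on both sides of it.

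The patterns over the 11 arrays were compared between genes after centring each on its own mean, with the root mean square log2 difference as the measure of likeness, so that smaller means more alike. Among the granule genes the closest pairs were Cpe and Pam (0.0950), Chga and Scg5 (0.0970), and Chgb and Scg2 (0.134). Among 7893 genes above the median level, those most like Chga were Lima1 (0.0890), which encodes an actin-binding protein, Il10rb (0.102), a cytokine receptor subunit, and Adamts4 (0.104), a protease of the extracellular matrix. Chgb was most like Antxr2 (0.140), Gpm6b (0.144) and Samd5 (0.167). Scg2 was most like Gpm6b (0.112), P2rx3 (0.138) and Antxr2 (0.140). Gpm6b encodes a neuronal membrane glycoprotein and P2rx3 an ATP-gated channel of sensory neurons. Gpm6b averaged 9.60 in shTardbp, against 9.88 in shGFP and 8.56 in shLuciferase cells. Its low level in shLuciferase follows from its choice by likeness to Chgb and Scg2 on these same arrays. These likenesses describe 11 arrays that share 3 lines.

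Other genes of the granule pathway were counted from lists. Of 15 measured processing enzymes and inhibitors outside the 10 genes 2 rose and 3 fell against both controls (median change 0.020). The share that passed was 33.3%, near the 30.5% of all genes. Ece1, an endothelin-converting enzyme of the cell surface and endosomes, fell most: it was 4.59 to 4.67 on the shTardbp arrays, against 5.64 to 5.77 on the shGFP and 6.19 to 6.27 on the shLuciferase arrays (change -1.34, SE 0.0520, limma adjusted p = 9.00e-10). Its shTardbp values lay just above the 25th percentile. Its relative Ece2 rose by 0.39 (limma adjusted p = 0.000935), at 6.12 to 6.29, against 5.72 to 5.98 on the shGFP and 5.58 to 5.86 on the shLuciferase arrays. Cpd, a carboxypeptidase of the trans-Golgi network, fell (change -0.28, limma adjusted p = 0.00506), a call that was lost with the code letter as a block (-0.13, limma adjusted p = 0.522). Ctsl, which encodes cathepsin L, also passed (-0.24, limma adjusted p = 0.0106), but only shGFP stood apart from the other groups, with 10.41 to 10.55 in shTardbp cells, against 10.90 to 11.08 in shGFP and 10.33 to 10.61 in shLuciferase cells. The Ctsl call was lost with the code letter as a block (-0.054, limma adjusted p = 0.771) and with neighbouring genes subtracted (-0.20, limma adjusted p = 0.0671). Furin, the convertase of the constitutive pathway, was lower in shGFP than in shLuciferase cells (-0.31, limma adjusted p = 0.0216), and Pcsk1n, which encodes the PCSK1 inhibitor proSAAS and is named here after its values were seen, had a change of 0.068 that did not pass (limma adjusted p = 0.685).

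Of 20 measured genes of granule biogenesis and granule membrane 8 rose and 1 fell against both controls (median change 0.11). The share that passed was 45.0%, against 30.5% of all genes. Of the 20 genes 19 lay above the 25th percentile on every array, and genes with higher signals passed more often. Of the 7901 genes above the median level, fitted on their own, 1703 were higher and 2313 lower. The 45.0% is therefore not read as an excess. Ptprn2, which encodes the granule membrane protein phogrin, was 7.51 to 7.78 on the shTardbp arrays, against 6.88 to 7.15 on the shGFP and 6.98 to 7.05 on the shLuciferase arrays (change 0.63, SE 0.0692, limma adjusted p = 1.15e-05). Hid1, needed for granule formation and listed under its old symbol C630004H02Rik, rose by 0.54 (limma adjusted p = 2.60e-05). Hid1 passed against shGFP alone (0.37, limma adjusted p = 0.00147) but was also 0.34 higher in shGFP than in shLuciferase cells (limma adjusted p = 0.0137). Atp6ap2, an accessory protein of the proton pump that acidifies granules, rose by 0.63 (limma adjusted p = 0.000698), but with the code letter as a block its change was 0.25 and did not pass (limma adjusted p = 0.404). Cyb561, which encodes the granule electron carrier that renews ascorbate for Pam and dopamine beta-hydroxylase, rose by 0.41 (limma adjusted p = 0.000839). The Cyb561 change against shGFP alone, 0.21, did not pass (limma adjusted p = 0.0903), its shTardbp and control arrays overlapped, and it was 0.41 higher in shGFP than in shLuciferase (limma adjusted p = 0.0110). Ica1, which takes part in granule budding, passed against both controls (0.36, limma adjusted p = 0.00232). Its change against shGFP was 0.093 (limma adjusted p = 0.515), and Ica1 was 0.53 higher in shGFP than in shLuciferase (limma adjusted p = 0.00193).

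Of 31 measured genes for granule docking and release 7 were higher and 4 lower (median change 0.065). The share that passed was 35.5%, near the 30.5% of all genes (13.5% higher and 17.0% lower). Rab27a, the small GTPase that tethers granules to the cortex, was 8.39 to 8.59 on the shTardbp arrays, against 7.46 to 7.94 on the shGFP and 7.28 to 7.59 on the shLuciferase arrays (change 0.85, SE 0.0932, limma adjusted p = 1.15e-05). Rph3al, which encodes the Rab effector Noc2, rose by 0.82 (limma adjusted p = 7.69e-06), and Stxbp2, a syntaxin-binding protein, rose by 0.91 (limma adjusted p = 2.00e-06). Rph3al passed against shGFP alone (0.63, limma adjusted p = 0.000216) but was also 0.38 higher in shGFP than in shLuciferase cells (limma adjusted p = 0.0302). Myrip, whose product links Rab27a on granules to myosin, fell instead, with 6.98 to 7.27 on the shTardbp arrays, against 8.11 to 8.24 on the shGFP and 7.71 to 8.10 on the shLuciferase arrays (change -0.93, SE 0.0812, limma adjusted p = 1.75e-06). Rab3c was 0.69 higher in shGFP than in shLuciferase cells (limma adjusted p = 0.000541), and its change against shGFP was 0.025 (limma adjusted p = 0.902). Cplx1, a regulator of membrane fusion, was lower in shGFP than in shLuciferase cells (-0.56, limma adjusted p = 0.00696).

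Of 50 measured genes for peptide cargo 20 lay above the 25th percentile on every array and 18 below it on every array. Of the 50 genes 1 rose and 2 fell (6% passed, against 30.5% of all genes, median change -0.015). Npy, which encodes neuropeptide Y, had values of 7.77, 8.72, 8.08 and 7.88 on the shTardbp arrays, against 9.68, 9.74, 9.29 and 9.63 on the shGFP arrays and 9.03, 9.08 and 9.43 on the shLuciferase arrays. All shTardbp arrays lay below all controls, and the signal was 2.41-fold lower (change -1.27, SE 0.157, limma adjusted p = 3.15e-05). Edn1, which encodes endothelin 1, fell (change -0.75, limma adjusted p = 3.40e-06), with 4.04 to 4.24 on the shTardbp arrays, which is below the 25th percentile, against 4.62 to 4.91 on the shGFP and 4.95 to 5.10 on the shLuciferase arrays. Gnrh1 rose by 0.55 in 2 probe sets at low signals (limma adjusted p = 0.00373), a call that was lost with the code letter as a block (0.73, limma adjusted p = 0.0584). Vip was 0.49 higher in shGFP than in shLuciferase cells, also at low signals (limma adjusted p = 0.0137).

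Of 24 measured transcription factors linked to granule genes 5 rose and 8 fell (54.2% passed, against 30.5% of all genes, median change -0.031). Of the 24 genes 22 lay above the 25th percentile on every array. Of the 7901 genes above the median level, fitted on their own, 1703 were higher and 2313 lower, so the 54.2% is not read as an excess. Crem, whose products bind the cyclic AMP response element and include repressors, was 5.95 to 6.12 on the shTardbp arrays, against 5.55 to 5.72 on the shGFP and 5.27 to 5.64 on the shLuciferase arrays (change 0.56, limma adjusted p = 6.80e-05). Atf2, a relative that binds the same element, rose by 0.33 (limma adjusted p = 0.000447). Both calls were lost with the code letter as a block, for Crem (0.27, limma adjusted p = 0.118) and for Atf2 (0.22, limma adjusted p = 0.152). Creb1, the founding member of that family and named after its values were seen, had a change of 0.13 (limma adjusted p = 0.275). Rest, the repressor of neuronal genes that include several granins, was also named after its values were seen: it rose by 0.29 against both controls (limma adjusted p = 0.0188) and by 0.35 against shGFP (limma adjusted p = 0.0130), while its change against shLuciferase was 0.23 (limma adjusted p = 0.138). Pax6, a factor of islet and neural development, fell (-0.73, limma adjusted p = 0.000230). Insm1, a zinc finger factor of neuroendocrine cells, fell against both controls (-0.48, limma adjusted p = 0.000242) and was 0.65 higher in shGFP than in shLuciferase cells (limma adjusted p = 0.000381). The Insm1 change against shLuciferase alone was -0.15 (limma adjusted p = 0.282), and with the code letter as a block the change against both controls was -0.25 and did not pass (limma adjusted p = 0.199). Gata2 and Tfap2a were lower in shGFP than in shLuciferase cells (-0.61 and -0.43, limma adjusted p = 0.000147 and 0.00865).

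**Figure D4:**
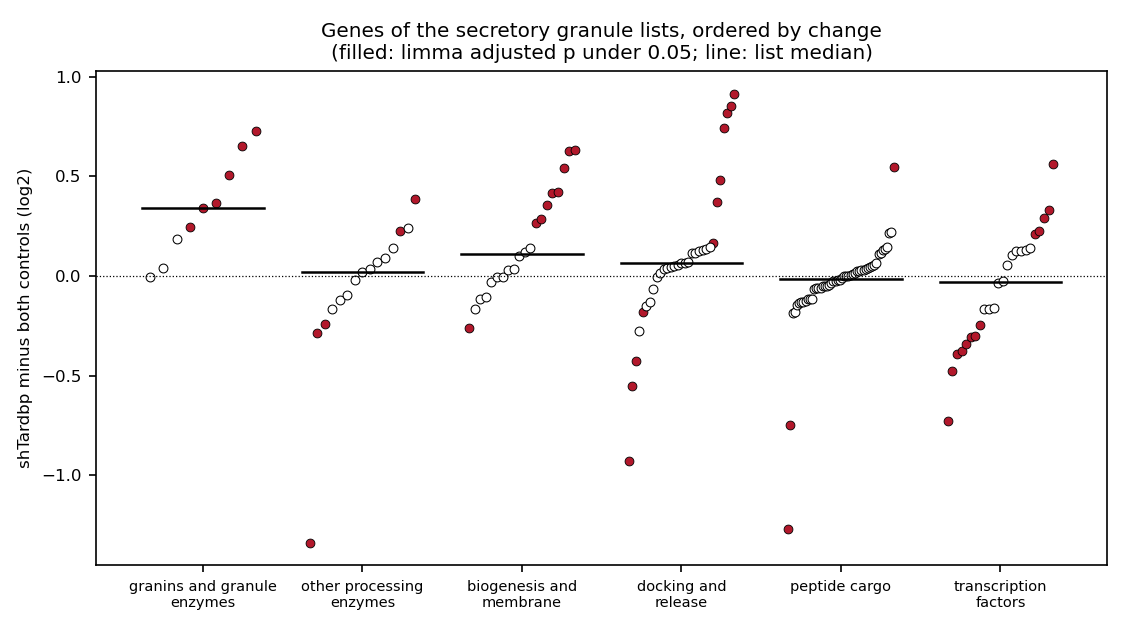
Changes of single genes in shTardbp minus the mean of both controls, on the log2 scale, for the granule genes and 5 lists of related genes. Points are genes, filled where the limma adjusted p was under 0.05 over all genes, and lines mark list medians. The median of the 9 granule genes is 0.34 and those of the 5 lists lie between -0.031 and 0.11.

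Markers of other cells and of neurons were also counted against both controls, where 30.5% of all genes passed, 13.5% higher and 17.0% lower. The share that passed was 30% for motor neuron markers, near that of all genes, and 16.7% for neuron markers. It was 71.4% for sympathetic and neuroblastoma, 33.3% for fibroblast and muscle and 10% for glial markers. The motor neuron list had 3 higher and 0 lower of 10 genes, and its summed log2 level was 69.3 to 71.1 in shTardbp, against 67.4 to 67.9 in shGFP and 66.8 to 67.5 in shLuciferase cells, so that all shTardbp sums lay above all control sums, in the direction of Chga, Scg3 and Scg5. The 12 neuron markers had 1 higher and 1 lower (sums 119.5 to 121.8 in shTardbp, 119.2 to 120.9 in shGFP and 120.3 to 120.6 in shLuciferase cells). The sympathetic and neuroblastoma list had 1 higher and 4 lower of 7 measured genes in shTardbp cells, and its summed log2 level was 49.8 to 50.9 in shTardbp, against 52.3 to 53.2 in shGFP and 50.7 to 51.5 in shLuciferase cells. Fibroblast and muscle markers had 2 higher and 2 lower of 12 genes (sums 61.0 to 62.6 in shTardbp, 63.6 to 64.3 in shGFP and 62.2 to 64.2 in shLuciferase cells), with Lum below the 25th percentile on every array. Glial markers had 1 higher of 10 (sums 54.8 to 56.9 in shTardbp, 54.8 to 55.6 in shGFP and 54.5 to 56.0 in shLuciferase cells), with Mag below it. Endocrine markers summed to 43.5 to 44.9 in shTardbp, 43.4 to 45.3 in shGFP and 43.9 to 45.5 in shLuciferase cells. The part of these markers in the granule gene results was not tested. The 20 nearest genes on the chromosome had median changes between -0.082 (around Scg2) and 0.14 (around Chga) for the 9 genes.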

How the data were processed

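The authors deposited log2 values, 1 per probe set and array, from Affymetrix whole-transcript arrays, and the submitters' processing notes name Partek and RMA without a version. Settings of that normalization, and the build behind the annotation, are not given in the sources. All 11 columns of values were used. The platform annotation gave 179496 of 194293 probe sets 1 symbol, 1328 several and 13469 none, and only the first kind was used. Some symbols of that annotation are old.

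A gene's value was the mean over its probe sets (median 9). One 3-group model was fitted to 15803 genes with limma 3.58.1 in R 4.3.3, with no filter on low values, for shTardbp minus the mean of both control means, shTardbp minus each control, and shGFP minus shLuciferase. Probe sets were fitted likewise, and each probe set's difference from the rest of its gene in genes with at least 3 of them. Named list genes were up to 4 per list with the smallest adjusted p, up to 2 more with the largest control difference among those past the threshold, and for Chga, Chgb and Scg2 the 3 most like genes. Genes outside that rule are marked as named after their values were seen. The genes and lists were chosen with earlier results of these data known. The tests were checked on simulated data. No same-group arrays were copies of each other: at most 13 probe sets of a pair were identical.

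Alternatives were the median of probe sets, filters on low genes and low probe sets, quantile normalization or centring, array weights, neighbouring genes subtracted, the array code letter or the replicate number as a block, diffSplice for usage, and leaving out each array. Same-numbered arrays did not deviate together in every pair (8 pairs, r from -0.0561 to 0.263, 5 over 0.1). Of 10 arrays 5 correlated best with an array of their own number. The main model leaves the number out, and its part in the results was looked at only through the block. The number of arrays limits the precision.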

Additional observations from a re-analysis of the deposited data

Results flagged for a closer look

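In 35 named genes the 70 groups of 4 arrays were searched for 1 array far from the other 3, and 5 groups held one. Chance flags about 1 group in 20. Chga was 9.91 on shGFP 1, against 10.23 to 10.28 on the other shGFP arrays. Edn1 was 4.24 on shTardbp 1, against 4.04 to 4.06 on the other shTardbp arrays, and 4.91 on shGFP 1, against 4.62 to 4.65 on the other shGFP arrays. Vip was 5.13 on shGFP 1, against 4.65 to 4.72, and Crem was 5.95 on shTardbp 1, against 6.09 to 6.12.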

How the results depend on the processing

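Chga, Scg3 and Scg5 kept their calls against both controls under every alternative run, and the count of the 9 granule genes past that threshold was 5 to 6 when single arrays were left out and 4 to 6 otherwise. The count of all genes past the threshold between shGFP and shLuciferase, 1752, was 962 with the median of the probe sets, 2916 with array weights and 1000 with the replicate number as a block. With the code letter as a block it was 2509 against both controls (4825 without) and 1933 against shGFP (4416), and the Tardbp change was -0.29. The lists' counts became 5 (biogenesis) and 6 (transcription factors) with the median of the probe sets, 2 (processing enzymes), 7 (docking) and 1 (peptides) over genes above the median level, where fewer genes are tested, 7 (peptides) with neighbouring genes subtracted, and 3 (processing enzymes) and 8 (transcription factors) with the code letter as a block. Probe set usage gave 0 to 1 calls when single arrays were left out, 1 without low probe sets and 2 with diffSplice.

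Signs turned only in changes that did not pass. For Pcsk1 against both controls the change was -0.00060 without low probe sets and -0.11 with the code letter, against shGFP -0.14 with the letter, and against shLuciferase -0.036 and -0.085 for the same settings and -0.0050 to 0.098 without single arrays. In shGFP minus shLuciferase it was 0.096 (median of probe sets), 0.041 (array weights), 0.083 (neighbours), 0.051 (letter) and -0.052 to 0.051 without single arrays. For Pcsk2 against both controls it was 0.012 (quantile), 0.011 (centring), 0.29 (letter), 0.039 (replicate block) and -0.065 to 0.048 without single arrays, and against shLuciferase 0.0076 (letter). Scg3 in shGFP minus shLuciferase was 0.0062 (median of probe sets), 0.0011 (neighbours) and -0.085 to 0.018 without single arrays. Gata2 against both controls was -0.019 (letter).

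With the replicate number as a block, Pcsk2 passed against shGFP (0.31, limma adjusted p = 0.0458) and Scg5 no longer passed between the controls (0.34, limma adjusted p = 0.0645). shGFP 5 has no partner in that fit, and 5 of 10 arrays correlated best with an array of their own number. Chga passed between the controls with array weights (limma adjusted p = 0.0125). The causes were not tested. Signals near the 25th percentile, such as those of Pcsk1, carry little information on a difference.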
